A study of Mus musculus with 6 samples.

Results

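Chemokines are small secreted proteins that guide the movement of leukocytes, and they act through receptors coupled to G proteins. The genes described here are those of the mouse array whose symbol is a numbered CC, CXC, CX3C or XC chemokine ligand or a numbered receptor of these classes. Cxcl9 and Cxcl10 were left out by the rule that chose the genes. The rule found 64 probe sets annotated to 1 such gene. They stand for 47 genes, 30 ligands and 17 receptors, of the 12394 genes tested. Each gene was represented by its probe set with the highest mean.

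The samples were subcutaneous white adipose tissue, labelled IWAT, of YY1bKO mice (YY1flox/flox; Ucp1Cre, n = 3 arrays) and of control mice (YY1flox/flox, n = 3 arrays). Both groups carried the floxed Yy1 alleles, were 8 weeks old, had a mixed background of C57BL6 and 129, and were fed high fat diet during 2 weeks. YY1, the product of Yy1, is a zinc finger protein that can activate or repress genes. The Ucp1Cre transgene is active mainly in thermogenic adipocytes, so leukocytes, stroma and most white adipocytes of this depot are not its main targets. No group with Cre and without floxed alleles is named in the labels, so effects of Cre cannot be told apart from loss of YY1. The labels do not say whether each array stands for its own animal. The p-values therefore cover only the spread among these arrays, part of which may be technical.

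Chemokines fall into classes by the spacing of their first cysteines, and by use into homeostatic and inflammatory ones. Homeostatic chemokines are made continuously in lymphoid organs and some epithelia. There Cxcl13 draws B cells through Cxcr5, and ligands of Ccr7 draw naive T cells and mature dendritic cells. Inflammatory chemokines such as Ccl2, Ccl7 and Ccl12 recruit monocytes through Ccr2, and in obese fat this route feeds the macrophage population. The inguinal fat pad of the mouse also encloses a lymph node, in which the homeostatic chemokines and their receptors are abundant.

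All values below are log2(intensity + 1), and a difference is the YY1bKO mean minus the control mean on that scale, which understates the change of dim genes. Medians of the 6 arrays lay between 123.15 and 130.35 intensity units. The lower quartile of each array lay between 4.95 and 5.03 on the log2 scale, and values below it are close to the floor of the measurement. Yy1 itself differed by -0.24 ± 0.12 (SE; limma adjusted p = 0.574), while Ucp1 differed by 5.25 ± 0.14 (limma adjusted p = 1.91e-04). All 10 measured white adipocyte markers had means above the lower quartile. Several arrays stood apart in markers of other cell types. YY1bKO replicate 1 and control replicate 1 had the lowest means of the B cell markers. Control replicate 3 had the highest means of the B cell, T cell and lymph node stroma markers (centred means 2.12, 1.33 and 0.79). The highest mean of skin and mammary epithelium markers was that of control replicate 2. YY1bKO replicate 1 also had the highest mean of the 10 skeletal muscle markers, with a centred mean of 2.78 there, -0.70 and -0.62 in the other YY1bKO arrays, and from -0.67 to -0.21 in control arrays. The summed intensity of these markers was 5529 in that array, 844.3 and 1874.4 in the other YY1bKO arrays, and from 572.9 to 816.6 in control arrays. The values of B cell, T cell, lymph node stroma and epithelium markers are given again below, beside the chemokine genes. Those of muscle markers are not, and the part of muscle in the values of YY1bKO replicate 1 was not tested.

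None of the 47 genes passed an adjusted p of 0.05 by limma, against 4 of all 12394 genes (0.0323%), each of those 4 higher in YY1bKO. The smallest adjusted p of a chemokine gene was 0.289. At an unadjusted p under 0.05, Ccl25 and Ccl27a were higher, 2 of 47 where 8.45% of all genes were higher, and Ccl1 was lower, 1 of 47 where 1.99% of all genes were lower. The arrays of the 2 groups did not overlap in 3 genes that were higher in YY1bKO, Ccl27a, Ccl25 and Cxcl14, where 11.5% of all genes did so. For Cxcl14 this did not hold in its other, about equally bright probe set. The groups also did not overlap in 3 genes that were lower, Ccl1, Ccr8 and Cx3cl1, where 5% of all genes did so. None of these counts exceeded its background share by more than 1 gene. The median difference was -0.11 over the 30 ligands, of which 19 had a negative difference. It was -0.14 over the 17 receptors, of which 13 had one. The median over all genes was 0.00, and 6076 of all 12394 genes had a negative difference. The signs depended on single arrays. Without control replicate 3, 21 of the 47 genes had a negative and 26 a positive difference. The same counts were found without YY1bKO replicate 1. No chemokine gene had a difference beyond 1 in either direction, where 214 of all 12394 genes had one.

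**Figure D1:**
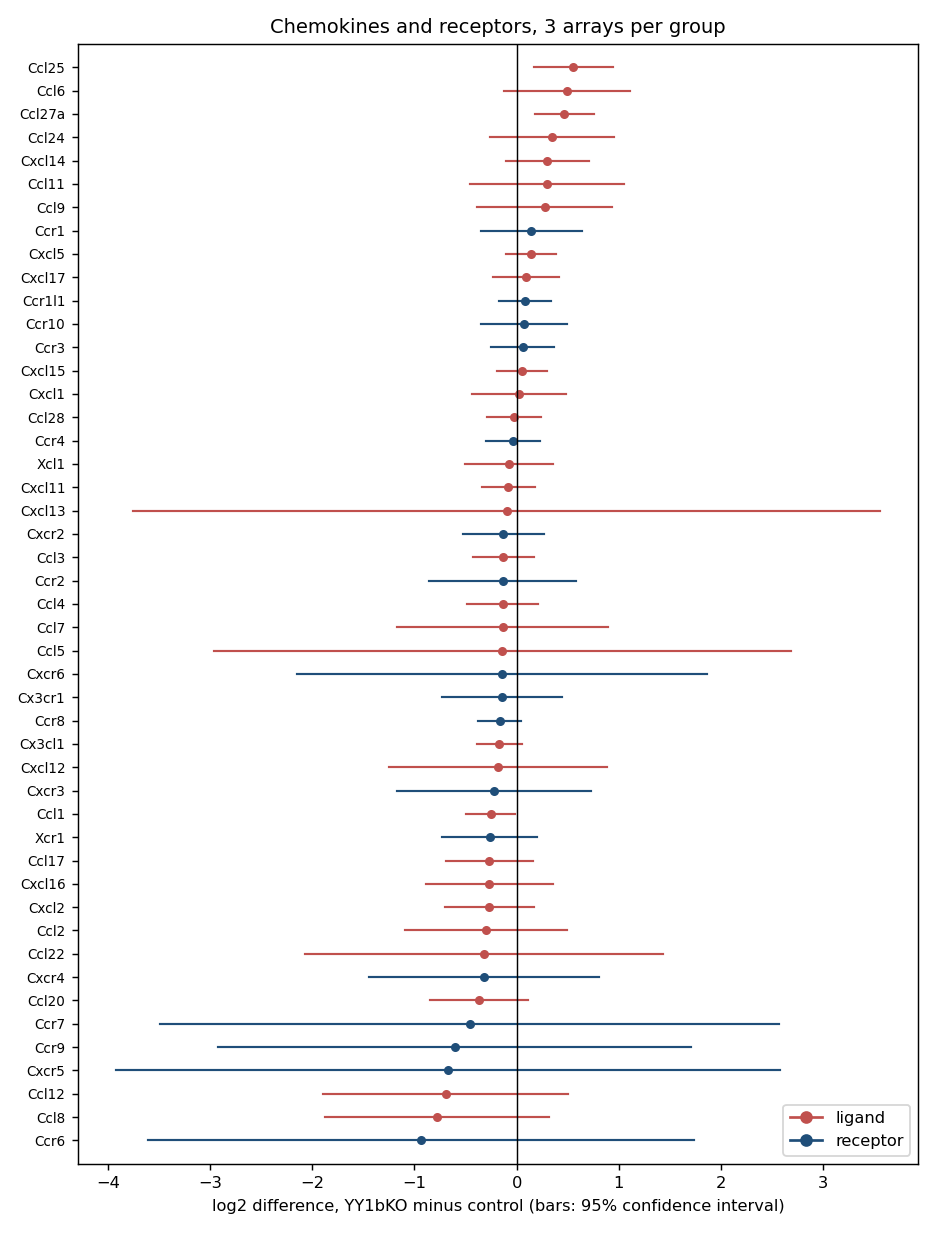
Log2 difference of each of the 47 genes, YY1bKO minus control, with its 95% confidence interval from limma (3 arrays per group). Points are the differences, ligands in red and receptors in blue. The intervals of Cxcl13, Cxcr5, Ccr7, Ccl5 and Ccr6 are the widest, and 3 intervals leave out 0, those of Ccl25, Ccl27a and Ccl1.

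The 6 widest ranges across the arrays were those of Cxcl13, Cxcr5, Ccr6, Ccr7, Ccl5 and Ccr9, and in each of these genes the range within either group was larger than the difference between the groups. They are described together here because of these ranges, seen in the data, and follow no list. Ccl5 is listed among the ligands of monocytes and macrophages, and Ccr10, a listed lymphoid homing receptor, had a range of 0.54. Cxcl13, the B cell attractant of lymphoid follicles, ran over 5.27 log2 units across the 6 arrays, the widest range of the 47 genes. Its values were 7.48, 10.76 and 9.55 in the YY1bKO arrays, against 6.27, 10.26 and 11.55 in the control arrays. The first array of each group was the lowest, and the groups overlapped fully. The difference was -0.10 ± 1.5 (SE; 95% confidence interval -3.75 to 3.56; limma adjusted p = 0.988), and the other Cxcl13 probe set gave -0.26. Cxcr5, the receptor of Cxcl13 on B cells and follicular helper T cells, had values of 4.05, 7.27 and 6.13 in YY1bKO arrays, against 3.90, 7.13 and 8.44 in control arrays. The order of arrays was close to that of its ligand, and the first array of each group was below the lower quartile. The difference was -0.67 ± 1.33 (limma adjusted p = 0.896).

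Ccr7, which brings naive T cells and mature dendritic cells into lymph nodes, had values of 4.90, 8.29 and 7.40 in YY1bKO arrays, against 5.09, 7.96 and 8.92 in control arrays. Here too the first array of each group was far below the others, and control replicate 3 was the highest. The value of YY1bKO replicate 1 was below the lower quartile. The difference was -0.46 ± 1.24 (limma adjusted p = 0.928). Its ligands Ccl19 and Ccl21a are listed only on probe sets that name several genes, and no value is given for them. Ccr6, the receptor of Ccl20 on B cells and some T cells, had the largest difference of the 47 genes, -0.94 ± 1.10 (limma adjusted p = 0.818). Its values were 5.29, 8.02 and 6.58 in YY1bKO arrays, against 5.56, 7.81 and 9.34 in control arrays, so the difference was smaller than the range within either group. Without control replicate 3 it was -0.05.

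Ccl5, made by activated T cells and natural killer cells, also had its 2 lowest values in the first array of each group and its highest in control replicate 3. Its values were 8.37, 11.32 and 10.66 in YY1bKO arrays, against 8.20, 10.52 and 12.04 in control arrays, with a difference of -0.14 ± 1.16 (limma adjusted p = 0.980). A further 3 genes with a wide range were singled out after their values were seen. Ccr9, a receptor of gut-homing lymphocytes, had values of 4.58, 7.21 and 6.36 in YY1bKO arrays, against 5.03, 6.90 and 8.04 in control arrays, and its 3 probe sets gave differences from -0.61 to -0.05. Cxcr6, found on effector and resident T cells, had 4.55, 6.99 and 6.01 in YY1bKO arrays, against 4.72, 6.02 and 7.23 in control arrays. Both had their 2 lowest values in the first arrays of the groups, at or below the lower quartile. The dimmest Ccr9 probe set did not keep this order, with 4.46 in control replicate 1 and 4.28 in control replicate 2. Ccl22, a dendritic cell ligand of Ccr4, had 5.95, 7.64 and 6.94 in YY1bKO arrays, against 5.83, 7.28 and 8.36 in control arrays. Ccr4 itself stayed within 4.89 to 5.18 on all 6 arrays. It was above the lower quartile on only 1 array of each group, so its narrow range lies near the floor. Differences were -0.61 ± 0.95 for Ccr9, -0.14 ± 0.82 for Cxcr6 and -0.32 ± 0.72 for Ccl22 (limma adjusted p = 0.865, 0.969 and 0.912).

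Cxcl12 and its receptor Cxcr4, which retain blood cell precursors in the marrow and also act in lymphoid tissue and vessels, varied less. Cxcl12 had values of 9.98, 11.31 and 10.59 in YY1bKO arrays, against 10.21, 10.75 and 11.47 in control arrays (difference -0.18 ± 0.44; limma adjusted p = 0.919). The second Cxcl12 probe set gave a difference of 0.00, with 9.61, 9.69 and 9.67 in YY1bKO arrays, against 9.86, 9.30 and 9.81 in control arrays. In it control replicate 1 was the highest of all arrays. Cxcr4 had values of 6.98, 8.20 and 8.03 in YY1bKO arrays, against 7.23, 8.39 and 8.54 in control arrays (difference -0.32 ± 0.46; limma adjusted p = 0.852). For Cxcr4 and the brighter Cxcl12 probe set the first array of each group was the lowest of its group. The second Cxcl12 probe set did not show this in the control arrays. Cxcr3, the interferon-linked receptor of effector T cells, followed with 6.49, 7.37 and 7.11 in YY1bKO arrays, against 6.65, 7.00 and 7.97 in control arrays (difference -0.22 ± 0.39; limma adjusted p = 0.880).

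The same arrays differed in lymph node markers. Of 14 listed B cell markers 12 were measured, and all 12 had a negative difference, with 0 past the limma threshold and 0 at an unadjusted p under 0.05. Their mean, centred on each gene's mean over the 6 arrays, was -2.23, 1.17 and -0.02 in YY1bKO arrays, against -1.96, 0.92 and 2.12 in control arrays. Their summed intensity ran from 656.4 to 7225.8 in YY1bKO arrays and from 856.2 to 14821.1 in control arrays. Pax5 was the measured B cell marker with a mean below the lower quartile. Of 15 listed T cell markers 13 were measured, and all 13 had a negative difference, with 0 at an unadjusted p under 0.05 by limma. Their centred means were -1.32, 0.74 and 0.01 in YY1bKO arrays, against -1.31, 0.56 and 1.33 in control arrays. Control replicate 3 was not the highest array in each of them. Zap70 had 10.06 in control replicate 2 and 9.03 in control replicate 3, and Cd3e was highest in YY1bKO replicate 2 (8.09). Of 8 listed markers of lymph node stroma and high endothelial venules 6 were measured, with centred means of -0.85, 0.59 and 0.05 in YY1bKO arrays, against -0.76, 0.18 and 0.79 in control arrays. These 6 were not alike. Glycam1, a mucin of the high endothelial venules through which lymphocytes enter lymph nodes, had 4.49, 9.75 and 8.73 in YY1bKO arrays, against 4.90, 8.33 and 9.96 in control arrays. Its values in the first array of each group were below the lower quartile. Clu, which follicular dendritic cells express among other cells, was also lowest in the first array of each group, while Pdpn, a stromal surface protein, was highest in control replicate 1, and Chst4 was below the lower quartile on all arrays. In whole tissue, fewer cells of a type and less RNA per cell cannot be told apart. The part of lymph node content in the values of Cxcl13, Cxcr5, Ccr7 and the other lymphoid genes was not tested.

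Read over all 47 genes, the 2 lowest of the 6 arrays were YY1bKO replicate 1 and control replicate 1 in 14 genes (29.8%), against 11.8% of all genes. This order was noticed in the data. Among the receptors it held for 8 of 17 and among the ligands for 6 of 30. Control replicate 3 was the highest array in 22 of the 47 genes (46.8%), against 23.4% of all genes. A range over 2 log2 units across the arrays was found in 10 of the 47 (21.3%), against 4.61% of all genes. Without YY1bKO replicate 1 and control replicate 1 together, the differences were -0.75 for Cxcl13, -1.08 for Cxcr5, -0.59 for Ccr7, -1.27 for Ccr6 and -0.29 for Ccl5, with limma adjusted p values from 0.566 to 0.864.

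**Figure D2:**
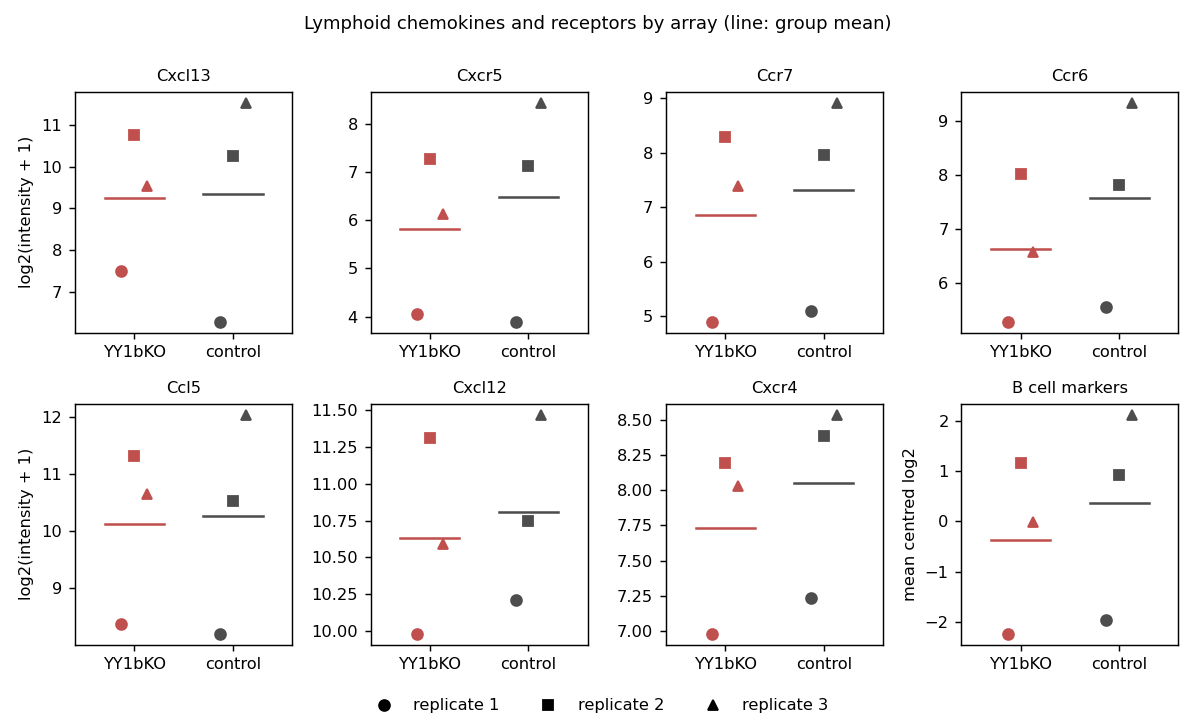
Log2(intensity + 1) of 7 lymphoid chemokine genes in each array, YY1bKO in red and control in grey, with the centred mean of the B cell markers in the last panel. Symbols mark the replicate number and lines the group means of 3 arrays. In each panel replicate 1 is the lowest array of its group, and control replicate 3 is the highest array of all.

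**Figure D3:**
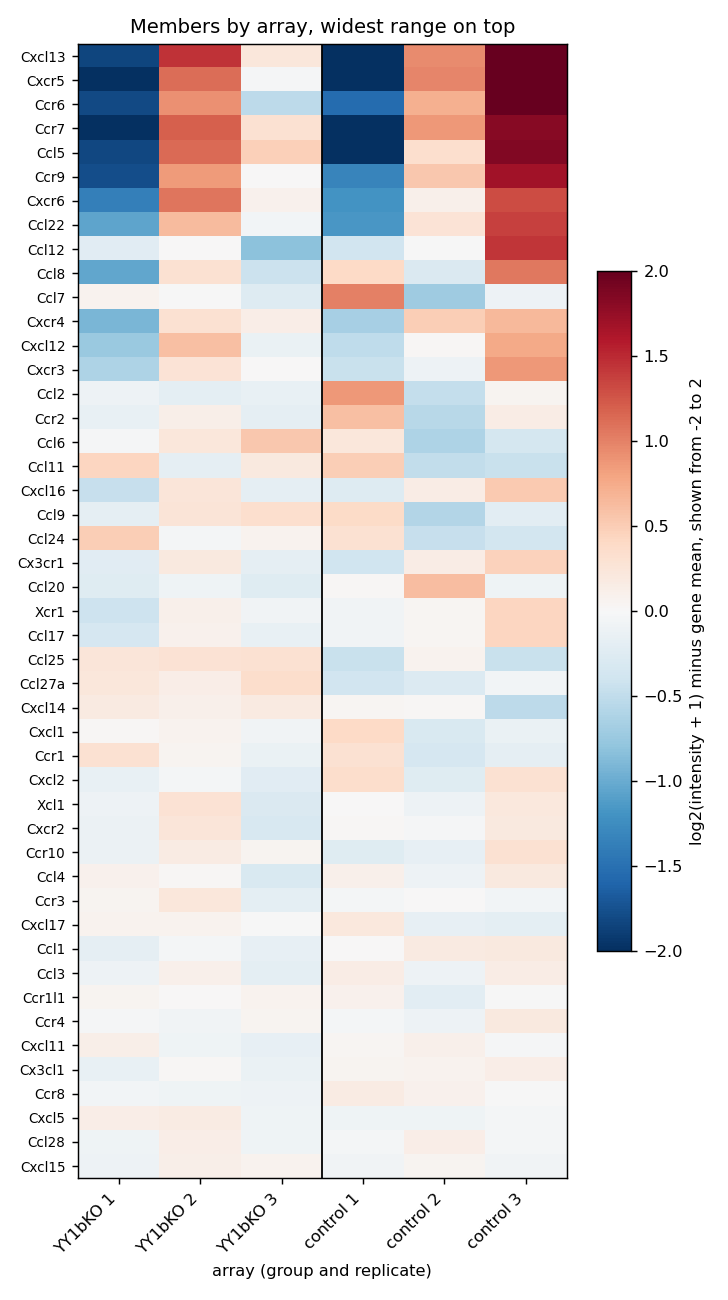
Log2(intensity + 1) of the 47 genes in each array after subtraction of the gene's mean over the 6 arrays, with colours limited to the range from -2 to 2. Rows run from the widest range on top (Cxcl13, 5.27) downward, and the YY1bKO arrays are left of the black line. Among the widest rows, the first array of each group is blue and control replicate 3 is red.

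Promoters of 4 genes are shown because these genes stand for the 2 patterns of the arrays, Cxcl13 and Cxcr4 for the lymphoid order above and Ccl9 and Ccl6 for the macrophage ligands that follow. Each is the RefSeq sequence of build GRCm38.p6 from 250 bases before to 50 bases after the gene's start, 5′ to 3′ on the gene's strand. Cxcl13 lies at chr5:95956689-95956988 on the plus strand. Cxcr4 lies at chr1:128592250-128592549, Ccl9 at chr11:83578587-83578886 and Ccl6 at chr11:83593038-83593337, all on the minus strand. Capitals mark matches on either strand to TATAAA, the core of a TATA box.
Cxcl13: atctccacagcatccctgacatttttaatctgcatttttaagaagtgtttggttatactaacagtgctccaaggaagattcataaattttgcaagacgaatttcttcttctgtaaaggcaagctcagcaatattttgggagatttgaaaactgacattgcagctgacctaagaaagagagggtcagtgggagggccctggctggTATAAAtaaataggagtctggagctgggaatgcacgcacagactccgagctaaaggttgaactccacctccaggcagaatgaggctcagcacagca
Cxcr4: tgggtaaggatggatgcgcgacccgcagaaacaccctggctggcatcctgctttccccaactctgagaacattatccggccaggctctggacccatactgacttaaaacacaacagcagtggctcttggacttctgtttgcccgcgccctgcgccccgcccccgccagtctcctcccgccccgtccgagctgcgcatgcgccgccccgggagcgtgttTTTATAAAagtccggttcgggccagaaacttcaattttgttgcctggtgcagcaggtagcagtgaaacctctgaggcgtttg
Ccl9: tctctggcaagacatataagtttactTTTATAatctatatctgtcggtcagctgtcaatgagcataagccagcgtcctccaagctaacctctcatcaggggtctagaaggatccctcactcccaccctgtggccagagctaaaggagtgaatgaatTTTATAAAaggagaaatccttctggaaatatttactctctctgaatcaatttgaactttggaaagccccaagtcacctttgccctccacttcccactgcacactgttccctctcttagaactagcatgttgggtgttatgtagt
Ccl6: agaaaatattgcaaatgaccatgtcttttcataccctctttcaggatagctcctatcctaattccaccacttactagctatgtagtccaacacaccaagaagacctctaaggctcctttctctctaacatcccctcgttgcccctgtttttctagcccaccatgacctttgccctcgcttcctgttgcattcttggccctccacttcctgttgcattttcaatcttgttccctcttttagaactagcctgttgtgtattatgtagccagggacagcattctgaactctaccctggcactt
The Cxcl13 sequence holds 1 match to TATAAA, starting 46 bases before the gene's start, and Cxcr4 holds 2 that overlap, at 32 and 30 bases before it. Ccl9 holds 3 matches, at 224, 94 and 92 bases before its start, of which the last 2 overlap. The Ccl6 sequence has no match in this window. RefSeq promoters were matched for 34 of the 47 genes (38 promoters). TATAAA was found in 10 of the 38 (26.3%), against 13.6% of all 32851 promoters of that length. Besides Cxcl13, Cxcr4 and Ccl9, these were the promoters of Ccl8, Ccl12, Ccl25, Cx3cl1, Cxcl15, Ccr1l1 and Xcr1. A match describes the letters and is not a binding site.

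Among the ligands of monocytes and macrophages, Ccl6 and Ccl9 had positive differences and the other 7 negative ones, none past the test. Ccl6 and Ccl9 are mouse CC chemokines made by macrophages and other myeloid cells that act through Ccr1. Ccl6 had values of 11.43, 11.68 and 11.98 in YY1bKO arrays, against 11.69, 10.83 and 11.10 in control arrays. The YY1bKO arrays were above 2 of the 3 control arrays, with control replicate 1 among them. The difference was 0.49 ± 0.25 (SE; 95% confidence interval -0.12 to 1.11; limma adjusted p = 0.582), and the other probe set also gave 0.49. Ccl9 had values of 10.21, 10.64 and 10.73 in YY1bKO arrays, against 10.76, 9.81 and 10.17 in control arrays. Its highest value was that of control replicate 1, and its difference was 0.28 ± 0.27 (limma adjusted p = 0.778), with 0.30 by the other probe set. Without control replicate 1 the differences were 0.74 for Ccl6 and 0.54 for Ccl9, at unadjusted limma p of 0.0118 and 0.0469 (adjusted p = 0.173 and 0.276, where the range over all alternatives was 0.173 to 0.979 for Ccl6 and 0.276 to 1 for Ccl9). Ccr1, their receptor, had a difference of 0.14 ± 0.20 (limma adjusted p = 0.851), with values from 6.63 to 7.06 in YY1bKO arrays and from 6.42 to 7.07 in control arrays.

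The ligands of Ccr2 had negative differences. Ccl2, the main monocyte attractant, had values of 6.71, 6.63 and 6.67 in YY1bKO arrays, against 7.69, 6.34 and 6.88 in control arrays. The YY1bKO arrays lay close together between the control values. The difference was -0.30 ± 0.33 (limma adjusted p = 0.804). Ccr2 itself had 8.02, 8.27 and 7.99 in YY1bKO arrays, against 8.77, 7.60 and 8.31 in control arrays (difference -0.13 ± 0.30; limma adjusted p = 0.908). Its 3 probe sets gave differences from -0.44 to 0.07. Ccl7, named after its values were seen, had 6.26, 6.18 and 5.93 in YY1bKO arrays, against 7.21, 5.49 and 6.09 in control arrays (difference -0.14 ± 0.42; limma adjusted p = 0.939). In Ccl2, Ccl7 and Ccr2 alike, control replicate 1 was the highest and control replicate 2 the lowest of all 6 arrays.

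Ccl8 and Ccl12 had the most negative differences of the ligands. Ccl8, which in the mouse acts through Ccr8, had values of 9.40, 10.74 and 10.01 in YY1bKO arrays, against 10.83, 10.15 and 11.49 in control arrays. One control array lay below the highest YY1bKO array, and the difference was -0.78 ± 0.45 (95% confidence interval -1.87 to 0.32; limma adjusted p = 0.629). Without control replicate 2 it was -1.11 and without YY1bKO replicate 2 it was -1.12, at unadjusted limma p of 0.0452 and 0.0483 (adjusted p = 0.509 and 0.583, with 0.484 and 0.979 the extremes among the alternatives), and without control replicate 3 or YY1bKO replicate 1 it was -0.44 or -0.45. Ccl12, named after its values were seen, had 6.69, 6.93 and 6.11 in YY1bKO arrays, against 6.54, 6.92 and 8.35 in control arrays. Its difference of -0.69 ± 0.49 (limma adjusted p = 0.701) rested on control replicate 3, without which it was -0.15. Ccl3 and Ccl4, inflammatory ligands made by macrophages and T cells, had differences of -0.13 and -0.14 (limma adjusted p = 0.768 and 0.794), and Ccl3 was below the lower quartile on all 6 arrays.

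Macrophage markers were set beside these ligands. All 14 listed markers were measured, 8 with a positive and 6 with a negative difference, 0 past the limma threshold, 2 higher and 0 lower at an unadjusted p under 0.05, where 8.45% of all genes were higher and 1.99% lower. The 2 were Cd163, a scavenger receptor of resident macrophages (0.67; limma adjusted p = 0.295), and Mertk, a receptor for the uptake of dying cells (0.56; limma adjusted p = 0.377). The centred list mean was -0.10, 0.14 and 0.12 in YY1bKO arrays, against 0.17, -0.47 and 0.13 in control arrays. The summed intensity ran from 18634.3 to 22816.3 in YY1bKO arrays and from 15731.4 to 25238.8 in control arrays, and no marker had a mean below the lower quartile. Control replicate 2, with the lowest macrophage mean, also had the lowest values of Ccl6, Ccl9, Ccl2, Ccl7 and Ccr2. The same array was also the lowest in the centred means of endothelial (-0.50), fibroblast (-0.44) and white adipocyte markers (-0.42), about as low as for macrophage markers. Whether macrophage content plays a part in those values was not tested.

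The eotaxins Ccl11 and Ccl24, which draw eosinophils through Ccr3, had differences of 0.30 ± 0.31 and 0.35 ± 0.25 (limma adjusted p = 0.790 and 0.704). Ccl11, singled out with Ccl24 after their values were seen, had 10.04, 9.42 and 9.79 in YY1bKO arrays, against 10.10, 9.11 and 9.15 in control arrays. Ccl24 had 8.39, 7.85 and 7.96 in YY1bKO arrays, against 8.20, 7.44 and 7.52 in control arrays. In both genes control replicates 2 and 3 lay below all YY1bKO arrays. Control replicate 1 was above all of them in Ccl11 and among them in Ccl24. Without control replicate 1 the differences were 0.62 and 0.59 (limma adjusted p = 0.218 and 0.217, the lowest among the alternatives, where the highest were 0.984 and 0.979). Ccr3 was below the lower quartile on all 6 arrays, and the eosinophil markers Prg2, Epx, Siglecf and Il5ra had means below it.

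**Figure D4:**
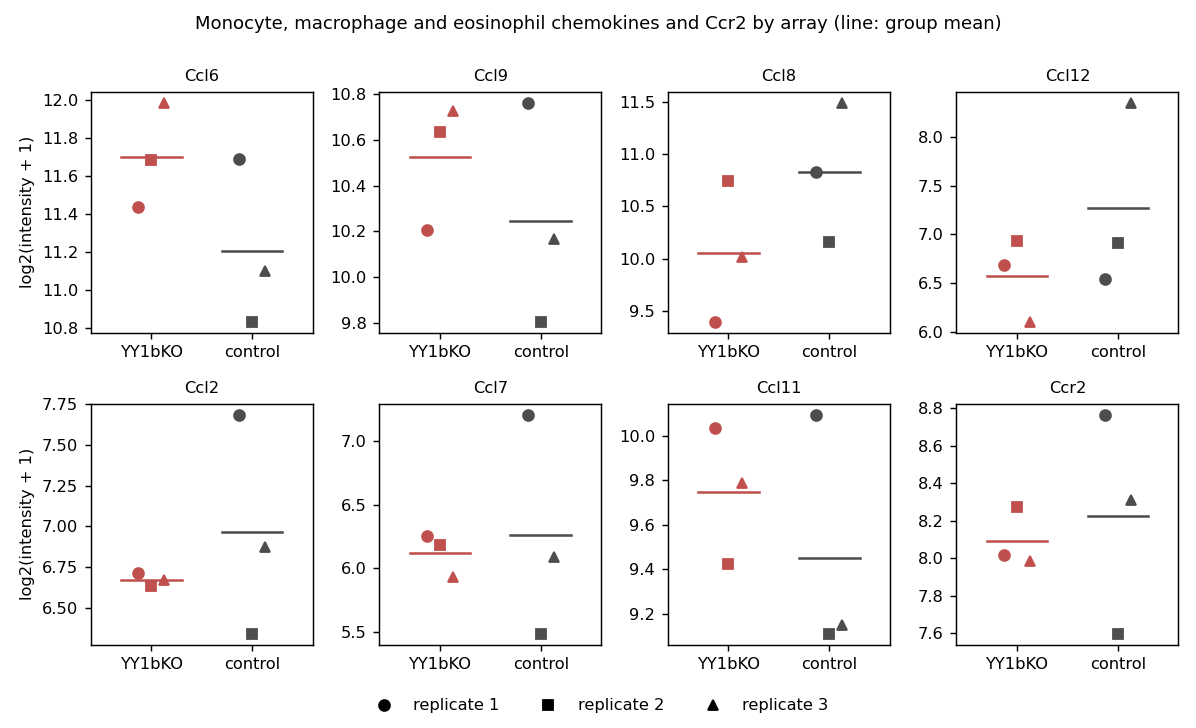
Log2(intensity + 1) of 7 ligands of monocytes, macrophages and eosinophils and of the receptor Ccr2 in each array, YY1bKO in red and control in grey. Symbols mark the replicate number and lines the group means of 3 arrays. The YY1bKO values of Ccl2 lie between 6.63 and 6.71, inside the control range from 6.34 to 7.69.

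The smallest p-values were those of a pair of epithelial ligands. Ccl27a, a skin chemokine that draws T cells through Ccr10, had values of 6.37, 6.28 and 6.49 in YY1bKO arrays, against 5.77, 5.87 and 6.09 in control arrays. All YY1bKO arrays were above all control arrays. The difference was 0.47 ± 0.12 (SE; 95% confidence interval 0.18 to 0.76; unadjusted p = 0.00761 and adjusted p = 0.289 by limma). The mouse genome holds near-identical copies of Ccl27a, and 2 further probe sets list it together with 4 other genes, so the reading is uncertain. Ccl25, made by thymic and intestinal epithelium and the ligand of Ccr9, had values of 6.20, 6.26 and 6.26 in YY1bKO arrays, against 5.51, 6.02 and 5.51 in control arrays. The groups did not overlap, and control replicate 2 was close to the YY1bKO arrays. The difference was 0.56 ± 0.16 (95% confidence interval 0.17 to 0.94; unadjusted p = 0.0124 and adjusted p = 0.324 by limma). Their receptors did not pass the test. Ccr10 differed by 0.07 ± 0.17 (limma adjusted p = 0.924), and the values of Ccr9 are given above.

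Other ligands of skin and mucosa showed less. Cxcl14, a ligand of epithelia that brown fat of mice also releases, had values of 7.71, 7.64 and 7.73 in YY1bKO arrays, against 7.58, 7.57 and 7.02 in control arrays. The groups did not overlap, with a difference of 0.30 ± 0.17 (limma adjusted p = 0.613). The second Cxcl14 probe set, about equally bright with a mean of 7.54 for each, gave -0.35 with overlapping groups. It had 7.59, 7.10 and 7.41 in YY1bKO arrays, against 7.48, 8.76 and 6.91 in control arrays. Its high value was that of control replicate 2. Ccl20, the ligand of Ccr6, had 4.79, 4.94 and 4.79 in YY1bKO arrays, against 5.05, 5.64 and 4.94 in control arrays (difference -0.37 ± 0.20; limma adjusted p = 0.596). All YY1bKO values were below the lower quartile, and control replicate 2 was again the highest. Without control replicate 2 the difference was -0.16. That array also stood apart in the 14 skin and mammary epithelium markers, all measured, with a centred mean of 2.38 there, from -0.65 to -0.02 in YY1bKO arrays, and -0.62 and -0.61 in the other control arrays. The summed intensity of these markers ran from 458.1 to 715.5 in YY1bKO arrays and from 468.2 to 12520.3 in control arrays, and 4 of the 14 had means below the lower quartile. The part of epithelium in the values of Ccl20, Ccl25 and Cxcl14 was not tested. Ccl28 and Cxcl17, both mucosal ligands, differed by -0.03 and 0.09 (limma adjusted p = 0.952 and 0.852).

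In 3 genes all YY1bKO arrays were below all control arrays, by small amounts. Ccl1, a T cell product that acts through Ccr8, had values of 4.38, 4.52 and 4.39 in YY1bKO arrays, against 4.57, 4.73 and 4.75 in control arrays (difference -0.25 ± 0.10; unadjusted p = 0.0389 and adjusted p = 0.452 by limma). Ccr8 had values of 3.57, 3.55 and 3.54 in YY1bKO arrays, against 3.80, 3.72 and 3.63 in control arrays (difference -0.16 ± 0.09; limma adjusted p = 0.590). Both genes were below the lower quartile on all 6 arrays, so these differences lie near the floor. Ccl1 was not past an unadjusted p of 0.05 with a pseudocount of 16 or with quantile normalization. The same held without control replicate 2 or 3, or without YY1bKO replicate 1 or 3. In these fits its differences ran from -0.23 to -0.16 (unadjusted limma p from 0.0594 to 0.117). Ccl1 was also not past it with the replicate block (-0.25), or without replicate 1 (-0.29) or replicate 2 (-0.28) of both groups. Cx3cl1, a membrane-bound ligand of endothelium and other cells that holds monocytes, had values of 5.90, 6.07 and 5.91 in YY1bKO arrays, against 6.11, 6.11 and 6.18 in control arrays (difference -0.17 ± 0.09; limma adjusted p = 0.597). Its other 2 probe sets gave 0.09 and -0.10. Cx3cr1, its receptor on monocytes and macrophages, had values of 6.02, 6.44 and 6.08 in YY1bKO arrays, against 5.85, 6.40 and 6.71 in control arrays (difference -0.14 ± 0.24; limma adjusted p = 0.874). The groups overlapped, and the 2 probe sets of Cx3cr1 gave -0.14 and 0.08.

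**Figure D5:**
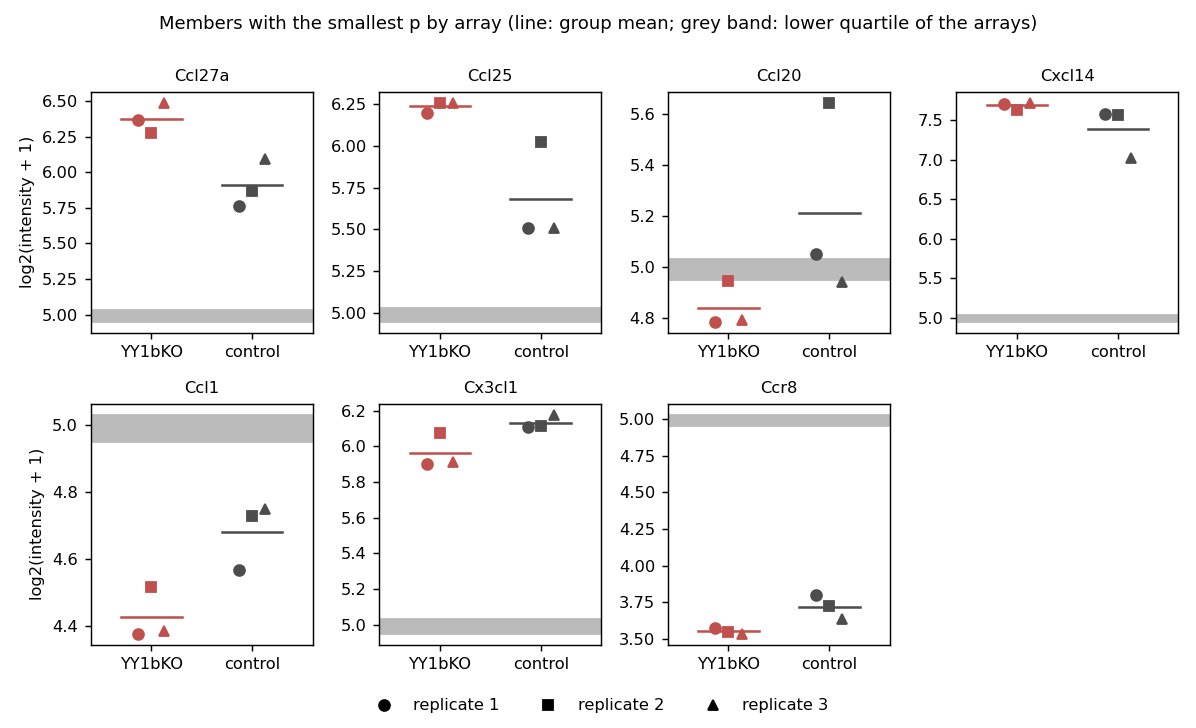
Log2(intensity + 1) of Ccl27a, Ccl25, Ccl20, Cxcl14, Ccl1, Cx3cl1 and Ccr8 in each array, YY1bKO in red and control in grey, with symbols for the replicate number and lines for the group means of 3 arrays. The grey band is the range of the lower quartiles of the arrays, 4.95 to 5.03. Ccl1 and Ccr8 lie below the band on every array, and Ccl27a and Ccl25 lie above it with no overlap between groups.

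The remaining genes were the neutrophil ligands, a few receptors and the XC pair. Cxcl1, Cxcl2, Cxcl5 and Cxcl15 had differences from -0.27 (Cxcl2) to 0.14 (Cxcl5), and Cxcl1 was the only one of these 4 with a mean above the lower quartile. Their receptor Cxcr2 differed by -0.13 (limma adjusted p = 0.833). Xcl1, a product of T and natural killer cells, and Xcr1, its receptor on cross-presenting dendritic cells, differed by -0.07 and -0.26 (limma adjusted p = 0.922 and 0.707). Cxcl16, the ligand of Cxcr6, differed by -0.27, Ccl17, a ligand of Ccr4, by -0.27, Cxcl11, a ligand of Cxcr3, by -0.08, Ccr4 by -0.03 and Ccr1l1 by 0.08 (limma adjusted p from 0.670 to 0.942). Of the 47 genes, 12 had a mean below the lower quartile, 7 ligands and 5 receptors, and for these a change could have been missed.

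Many chemokine genes lie in clusters in the mouse genome, and no run of neighbours held a gene past the test. On chromosome 11 the run Ccl2, Ccl7, Ccl11, Ccl12, Ccl8 and Ccl1 had 1 positive difference, that of Ccl11, and 5 negative ones. The next run there, Ccl5, Ccl9, Ccl6, Ccl3 and Ccl4, had 2 positive differences, those of Ccl9 and Ccl6, which are direct neighbours of each other. The 7 receptors of the run on chromosome 9, Ccr9, Cxcr6, Xcr1, Ccr1, Ccr1l1, Ccr3 and Ccr2, had 3 positive and 4 negative differences, and the 3 ligands of the run on chromosome 8, Ccl22, Cx3cl1 and Ccl17, had negative ones.

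Genes that act around the chemokines were taken from 3 lists of the pathway, and none passed the test by limma adjusted p. Over all genes, 51% had a positive difference. Of 9 atypical receptors and related ligands, 7 had a positive difference, and 1 was higher and 0 lower at an unadjusted p under 0.05, where 8.45% of all genes were higher. This was Ackr2, a scavenger of inflammatory CC chemokines, with 6.08, 6.07 and 6.25 in YY1bKO arrays, against 5.94, 5.61 and 5.74 in control arrays (difference 0.37 ± 0.12; limma adjusted p = 0.371). Ackr4, a scavenger of homeostatic chemokines, had 5.70, 5.80 and 5.66 in YY1bKO arrays, against 5.87, 6.33 and 5.87 in control arrays (difference -0.30 ± 0.15; limma adjusted p = 0.566). Ackr2 and Ackr4 each showed no overlap of the groups, 1 of 9 higher and 1 of 9 lower. Over all genes, 11.5% were higher and 5% lower without overlap. Of 19 measured genes of receptor signalling (of 22 listed), 16 had a negative difference, with a median of -0.18, and 0 were past an unadjusted p of 0.05. The smallest p-values were those of Gnai3, an inhibitory G protein subunit (-0.18; limma adjusted p = 0.593), and Rgs16, a brake on G protein signals (-0.27; limma adjusted p = 0.636). Of 18 measured inflammatory cytokine and NF-kappaB genes (of 20 listed), 17 had a negative difference, with a median of -0.09. Of these 18, 0 were past an unadjusted p of 0.05 by limma, and 5 had means below the lower quartile. Myd88, an adaptor of Toll-like receptors (-0.12; limma adjusted p = 0.721), and Il1b, an inflammatory cytokine (-0.13; limma adjusted p = 0.750), had the smallest p-values there. Both of these lists had their lowest centred means in YY1bKO replicate 1 and control replicate 1 (-0.60 and -0.29 for signalling, -0.38 and -0.34 for cytokines) and their highest in control replicate 3 (0.62 and 0.56), the order of the B cell markers given above.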

How the data were processed

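RNA of 6 tissue samples was hybridised to 1-colour Affymetrix arrays. The deposited table gives 1 intensity per probe set and array. The authors made these intensity values with RMA, per the submitters' processing notes. They run from 5.4 to 25730.1, so their scale is linear. RMA gives all arrays alike distributions and compresses low values. The version of RMA is not given.

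Gene names come from GEO's annotation of the array; 20393 of 22690 probe sets carried 1 gene symbol, 691 several and 1606 none. Only those with 1 symbol were tested, each gene by its probe set with the highest mean. By gene identifier, 20364 matched RefSeq (GRCm38.p6), which changed 0 symbols. Values were tested as log2(value + 1) with limma 3.58.1 in R 4.3.3 (6.11 total degrees of freedom), 2-sided, with Benjamini-Hochberg adjustment over 12394 genes and a threshold of 0.05. The step was tested on simulated data. The genes, lists and rules were chosen with earlier results of these data known. Values per array are given for the 8 genes with the smallest p, the 5 ligands and 4 receptors with the highest means, and fixed ligand and receptor pairs. No arrays were duplicates (Spearman correlations 0.946 to 0.993). Same-numbered arrays of the groups had deviations correlated at 0.61, 0.10 (0.0974) and 0.03, so the numbers were not taken as pairs. No scan date was among the files used. Alternatives changed the pseudocount, normalization, filter, probe set rule, variance model, weights, replicate block and arrays included.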

Additional observations from a re-analysis of the deposited data

How the results depend on the processing

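None of the 47 genes passed an adjusted p of 0.05 by limma under any of the 18 alternatives. With all arrays, the count of genes lower at an unadjusted p under 0.05 was 1. It became 0 with a pseudocount of 16 or with quantile normalization. It was also 0 without probe sets below the 25th or the 50th percentile, but these filters removed Ccl1 itself from the test. With an intensity trend it was 2 (Ccl1 and Ccr8), where 1.95% of all genes were lower. It was 0 without replicate 1 of both groups, where 2.58% of all genes were lower. Without replicate 2 of both groups it was 3 (Ccl8, Ccr2 and Cxcl2), where 1.73% of all genes were lower. The count of genes higher was 2. It became 0 without probe sets below the 50th percentile, a filter that removed Ccl25 and Ccl27a themselves from the test. There 15 of the 47 genes were left and 11.5% of all genes were higher. Without replicate 1 of both groups the count of genes higher was 4 (Ccl6, Ccl9, Ccl11 and Ccl24), where 8.67% of all genes were higher. Leaving out each array in turn gave 2 to 7 genes higher, 7 without control replicate 1, where 13.2% of all genes were higher, so that 7 of 47 is near the background. It gave 0 to 2 lower, where from 0.775% to 4.62% of all genes were lower. Ccl1 was lost in 4 of these 6 fits and without replicate 1 or replicate 2 of both groups. The replicate block gave 3 higher (Ccl24, Ccl25 and Ccl27a), where 8.61% of all genes were higher. It gave 1 lower (Cxcr4), where 2.32% of all genes were lower, while Ccl1 had an unadjusted p of 0.0613 by limma. The block changed no call of these genes at an adjusted p. Not every array correlated best with its own number. The 4 calls over all 12394 genes became 1 to 12 under the alternatives, 1 with the block. Of 366 differences of 21 genes under the alternatives, 20 changed sign, none called. Those from leaving out each array ran from -0.61 to 0.062 for Ccl2, -1.17 to 0.75 for Ccl5, -0.45 to 0.14 for Ccr2, -1.58 to 0.52 for Ccr7, -0.38 to 0.052 for Cx3cr1, -0.52 to 0.15 for Cxcl12, -1.64 to 1.00 for Cxcl13, -0.50 to 0.16 for Cxcr3, -0.73 to 0.059 for Cxcr4 and -1.97 to 0.30 for Cxcr5. Without replicate 1 of both groups Ccl2 was at 0.042 and Ccr2 at 0.17, and with the mean of all probe sets Cxcl14 was at -0.025. The median difference ran from -0.20 to 0.01 for ligands and from -0.36 to 0.05 for receptors as single arrays were left out, and was -0.25 and -0.38 without replicate 2 of both groups. Without probe sets below the 50th percentile it was 0.09 over the 10 ligands left and -0.32 over the 5 receptors left. The cause was not tested. Of the 47 genes, 26 kept one sign under all settings, 11 positive and 15 negative. With 3 arrays per group and 12 genes near the floor, small changes could not be seen. In the genes with the widest confidence intervals, large changes in either direction could also have been missed. These intervals, from limma with all arrays, ran from -3.75 to 3.56 for Cxcl13 and from -3.92 to 2.58 for Cxcr5. They ran from -3.49 to 2.57 for Ccr7, -3.61 to 1.73 for Ccr6 and -2.96 to 2.69 for Ccl5.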
